A study of Mus musculus with 6 samples.

Results

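The aryl hydrocarbon receptor pathway was described here in cultured mouse bone marrow cells through 6 genes, namely the receptor Ahr, its partner Arnt, its repressor Ahrr and the target genes Tiparp, Cyp1b1 and Nqo1. All probe sets listed with 1 of these symbols alone were taken, which gave 15 of the 45037 probe sets that are not array controls, for 6 of 18193 genes so named. The cells with both cryptochromes deleted, Cry1 and Cry2, are called DKO, and the wild type cells are called WT. Each genotype had 3 arrays, DKO 1 to DKO 3 and WT 1 to WT 3, made from total RNA of cells of strain C57BL/6 that had been grown in serum-containing medium with interleukin-7 and received no other treatment. Age, sex and the number of animals were not stated in the labels, and nothing in the labels says that arrays of 1 genotype came from separate animals or cultures. The genes were chosen because the difference of Ahr between the genotypes was already known, so the differences of all 15 probe sets are given as a description, with no test.

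The receptor is a transcription factor of the bHLH-PAS family that waits in the cytoplasm in a complex with HSP90, moves to the nucleus when it binds dioxins, tryptophan metabolites or other planar ligands, and there pairs with ARNT. The pair binds xenobiotic response elements, which share the core GCGTG, and switches on enzymes such as CYP1A1, CYP1B1 and NQO1 together with feedback inhibitors of the receptor itself, AHRR and TIPARP. Cryptochromes act on relatives of this pair, since the clock activators CLOCK and BMAL1 are bHLH-PAS proteins too and bind E-boxes of sequence CACGTG. In haematopoietic cells the receptor is known for roles in B cells, innate lymphoid cells and myeloid cells.

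Upstream sequences of 3 target or feedback genes are shown, chosen because they hold the core of the element that the receptor binds. The genes are Ahrr, Tiparp and Cyp1b1, each with a probe set described below as lower in DKO. Nqo1 also had a lower mean level in DKO, but its upstream sequence holds 0 copies of the core and is not shown. Whether the receptor binds the sequences shown was not tested in these cells. They are the 250 bases before the annotated start, from RefSeq on build GRCm38.p6, written on the strand of the gene with the core in capitals, GCGTG on that strand or CACGC where the core lies on the other. The windows are chr13:74292332-74292581 (minus strand) for Ahrr, chr3:65528197-65528446 (plus strand) for Tiparp and chr17:79715062-79715311 (minus strand) for Cyp1b1.
Ahrr: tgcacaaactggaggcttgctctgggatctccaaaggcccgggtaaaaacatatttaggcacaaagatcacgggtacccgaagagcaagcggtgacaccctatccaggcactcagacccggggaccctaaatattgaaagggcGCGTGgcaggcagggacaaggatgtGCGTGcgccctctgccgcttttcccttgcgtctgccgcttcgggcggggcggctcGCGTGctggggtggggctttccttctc
Tiparp: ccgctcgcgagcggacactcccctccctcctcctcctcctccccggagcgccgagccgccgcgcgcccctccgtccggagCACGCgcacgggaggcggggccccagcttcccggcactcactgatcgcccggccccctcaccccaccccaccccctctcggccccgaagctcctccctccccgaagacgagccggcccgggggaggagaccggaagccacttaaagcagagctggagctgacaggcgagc
Cyp1b1: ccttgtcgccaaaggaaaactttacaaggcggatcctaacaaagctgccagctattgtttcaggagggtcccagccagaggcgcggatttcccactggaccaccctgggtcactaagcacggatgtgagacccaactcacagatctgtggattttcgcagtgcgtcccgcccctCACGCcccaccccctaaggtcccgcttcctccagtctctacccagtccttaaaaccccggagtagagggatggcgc

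Entries were found for 5 of the 6 genes, Arnt and Nqo1 being the others, and 4 of the 5 windows held the core on either strand. Ahrr had 3 copies, beginning 107, 82 and 27 bases before the start. Tiparp had 1 copy, 170 bases before it, Cyp1b1 had 1 at 76 bases and Arnt 1 at 29 bases, and the Nqo1 window had 0. Of all 32851 windows of the same length, 28.2% held the core on either strand. The longer element TNGCGTG was found in 1 copy, in Ahrr, and in 4.1% of all windows. The E-box CACGTG, which reads the same on both strands, was in 0 of the 5 windows and in 6.02% of all. The antioxidant response element TGACNNNGC, through which NRF2 acts on Nqo1, was found in 2 copies in the Arnt window, in none of the other 4, and in 10.2% of all. Elements further upstream than the 250 bases of a window were not looked for, so a count of 0 does not mean that a gene lacks the element.

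WT 2 stood apart from the other arrays, and values without it are therefore given beside those with it. The ratio of 3' to 5' signal of the Actb control, which is high where RNA is degraded, was 824 on WT 2 and 1.47 to 2.05 on the other 5 arrays. Its correlation with the others over the tested probe sets was 0.752 to 0.780, where it was 0.936 to 0.984 among the other 5. Its median signal was 115, against 44.0 to 55.3, so a deposited signal on WT 2 cannot be read beside the others without centring on the array median. The deposited values are MAS5 signals on a linear scale, and levels are given below also as log2(signal + 16) minus the median of the array, so that 0 is the middle of each array. A difference on this scale understates the change of dim probe sets. Probe sets whose mean lay above percentile 40 entered the limma fit, 27022 in all and 11 of the 15. The median difference over the tested probe sets was 0.21 with all arrays and -0.02 without WT 2. Of 13 B lineage markers measured, 12 lay above the array median on every array and none was listed at 0, among them Vpreb1, a part of the surrogate light chain of early B cells, at 13707 to 21211 in DKO and 14851 to 51355 in WT.

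Ahr gave 2 answers, 1 for each of its probe sets, which are listed with the same source sequence. Probe set 1422631_at read 91.7, 112 and 49.8 in DKO 1 to 3, against 340, 525 and 264 in WT 1 to 3. Every DKO array lay below every WT array, and by level WT 2 (2.04) was near WT 1 (2.34) and WT 3 (2.17). Relative to the array medians the level was 0.53 ± 0.37 in DKO and 2.19 ± 0.15 in WT (SD, n = 3 each), a log2 difference of -1.65 ± 0.32 (SE, the standard error from the limma fit). That is 0.318 times the WT level on the scale with 16 added, and 0.303 times without WT 2, where the difference was -1.72. DKO 3 was the lowest array and DKO 2 the highest of the knockout arrays, and leaving out any 1 array gave -1.82 to -1.45. In bulk RNA fewer cells of a type and less RNA per cell cannot be told apart.

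The second Ahr probe set, 1450695_at, showed no such gap. It read 34.4, 33.6 and 30.5 in DKO 1 to 3, against 39.2, 82.5 and 33.9 in WT 1 to 3. On all 6 arrays these signals lay below the median of the array. The level was -0.45 ± 0.07 in DKO and -0.36 ± 0.05 in WT (SD, n = 3 each), a difference of -0.10 ± 0.24 (SE) (-0.12 without WT 2). No detection calls were used here, so it was not tested whether this probe set measured the transcript at all. Where the 2 probe sets lie in the gene, on chromosome 12, was not analysed here.

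Ahrr, on chromosome 13, encodes a repressor that resembles the receptor, binds ARNT and occupies the same DNA elements. Its single probe set, 1420796_at, read 3.26, 26.8 and 58.8 in DKO 1 to 3, against 196, 121 and 107 in WT 1 to 3. Every DKO array was below WT 1 and WT 3 by level, but DKO 3 at 0.32 lay above WT 2 at 0.06, so the groups overlapped when WT 2 was kept. The log2 difference was -1.64 ± 0.63 (SE), and -2.05 ± 0.62 (SE) without WT 2. The spread among the knockout arrays was wide, at -0.76 ± 1.10 in DKO, against 0.88 ± 0.77 in WT (SD, n = 3 each). DKO 1 and DKO 2 lay below their array medians, DKO 1 the furthest. Leaving out any 1 array gave -2.18 to -1.07.

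**Figure D1:**
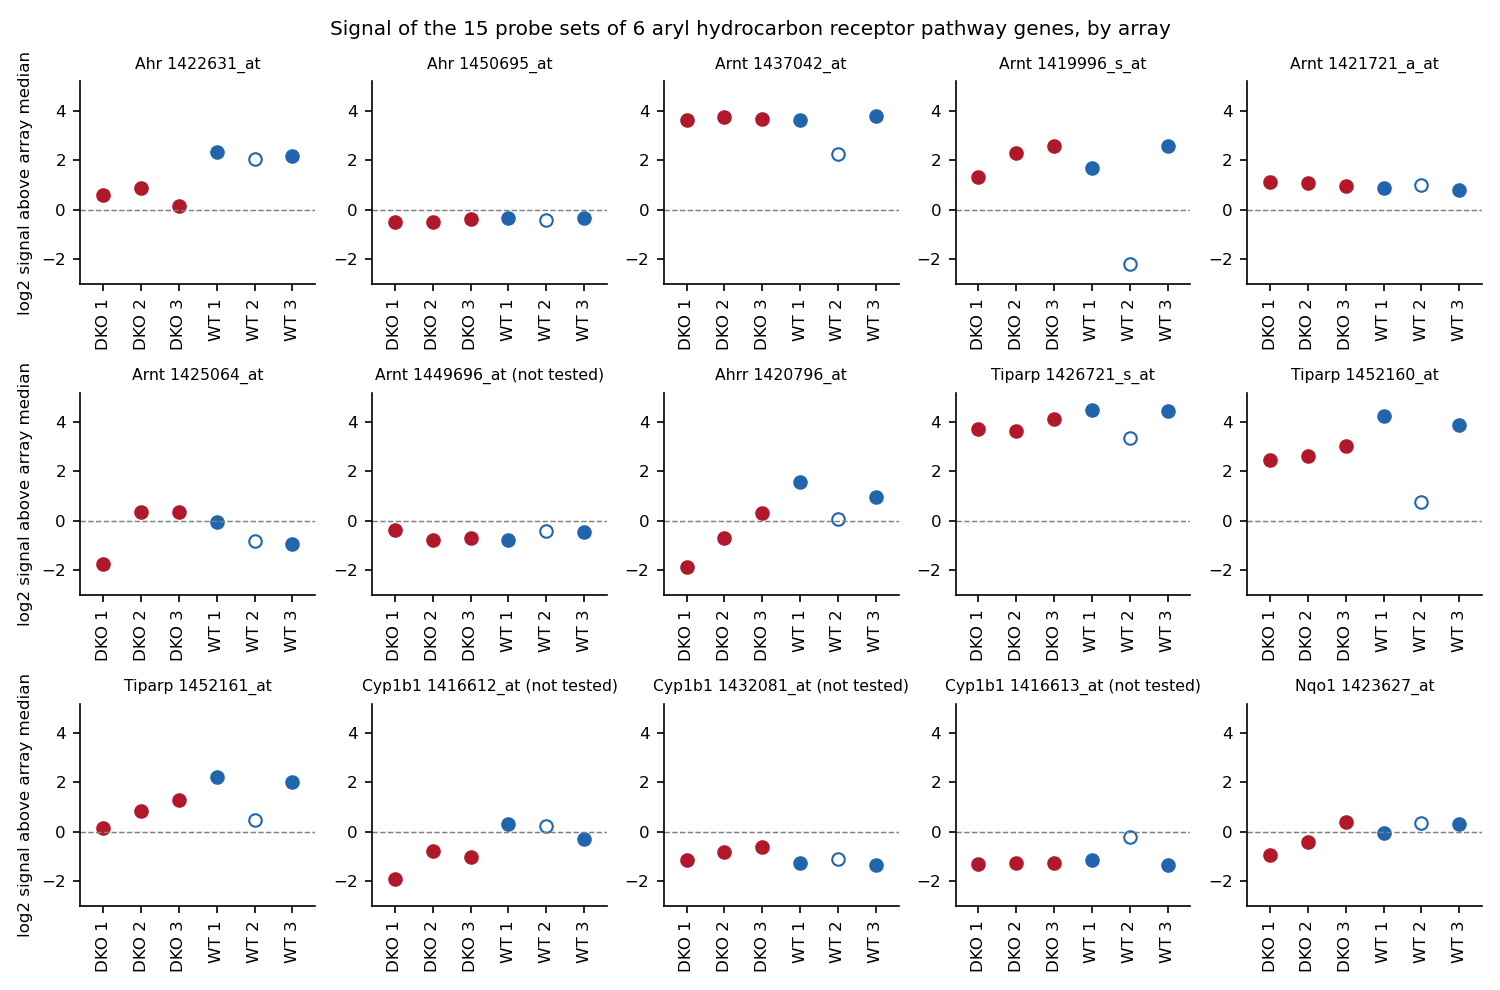
Level of each of the 15 probe sets on each array, as log2(signal + 16) minus the array median, with DKO arrays in red and WT arrays in blue, WT 2 as an open circle and the array median as a dashed line at 0. DKO points lie below WT 1 and WT 3 in Ahr 1422631_at, Ahrr and all Tiparp panels, and WT 2 lies far below WT 1 and WT 3 in Tiparp 1452160_at and Arnt 1419996_s_at.

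Tiparp, on chromosome 3, encodes a mono-ADP-ribosyltransferase that the receptor induces and that in turn limits the receptor, and all 3 of its probe sets were lower in DKO than in WT 1 and WT 3. The 3 are listed with the same source sequence and are no replicates of each other. Probe set 1426721_s_at, whose suffix marks probes that can match more than 1 transcript, read 911, 846 and 1028 in DKO 1 to 3, against 1590, 1344 and 1341 in WT 1 to 3. Every deposited DKO signal was below every WT signal, while by level WT 2 (3.37) fell below the DKO arrays (3.63 to 4.12). The log2 difference was -0.30 ± 0.48 (SE), and -0.67 ± 0.24 (SE) without WT 2.

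The other Tiparp probe sets differed by more when WT 2 was left out. Probe set 1452160_at read 377, 411 and 477 in DKO 1 to 3, against 1334, 205 and 911 in WT 1 to 3. WT 2 was here the lowest of the 6 arrays, and the difference depended on it, at -0.27 with all arrays and -1.38 without WT 2, which is 0.385 times the level of WT 1 and WT 3. It was 0.38 without WT 1 and 0.20 without WT 3, the opposite sign. Probe set 1452161_at read 63.9, 109 and 130 in DKO 1 to 3, against 310, 167 and 236 in WT 1 to 3. Its deposited signals did not overlap between the genotypes, while by level WT 2 (0.48) was below DKO 2 (0.84) and DKO 3 (1.29). Its difference was -0.81 ± 0.55 (SE), and without WT 2 it was -1.35 ± 0.37 (SE). In each of the 3 Tiparp probe sets the highest knockout array was DKO 3 and the highest array of all was WT 1.

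Cyp1b1, on chromosome 17, encodes a cytochrome P450 that oxidises steroids and polycyclic hydrocarbons, and its 3 probe sets were dim and did not enter the fit. Probe set 1416612_at had a mean at percentile 39.5, just under the filter. It read 2.99, 25.0 and 13.5 in DKO 1 to 3, against 71.6, 139 and 34.9 in WT 1 to 3, and every DKO array lay below every WT array. Its level was -1.23 ± 0.60 in DKO and 0.09 ± 0.33 in WT (SD, n = 3 each), a difference of -1.32, or -1.25 without WT 2. Only WT 1 and WT 2 lay above their array medians.

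Probe set 1432081_at of Cyp1b1 went the other way, at 16.3, 23.0 and 22.6 in DKO 1 to 3, against 13.5, 45.4 and 8.43 in WT 1 to 3. The difference was 0.36, and 0.43 without WT 2. Probe set 1416613_at read 13.2, 13.2 and 9.24 in DKO 1 to 3, against 15.6, 97.3 and 8.05 in WT 1 to 3, a difference of -0.36, and -0.01 without WT 2. Both lay below the array median on all 6 arrays, so the 3 Cyp1b1 probe sets did not give 1 direction.

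Nqo1, on chromosome 8, encodes the quinone reductase that both the receptor and NRF2 induce, and its genotypes overlapped. Its single probe set, 1423627_at, read 21.0, 35.7 and 63.5 in DKO 1 to 3, against 52.0, 152 and 61.2 in WT 1 to 3. By level DKO 3 was above all WT arrays, and DKO 1 and DKO 2 were below them. The difference was -0.53 ± 0.39 (SE), and -0.46 without WT 2, within the spread of the knockout arrays (SD 0.68, n = 3).

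Arnt, on chromosome 3, encodes the constitutive partner that the receptor shares with HIF1A, and its brightest probe set differed little between the genotypes once WT 2 was left out. Probe set 1437042_at read 870, 944 and 758 in DKO 1 to 3, against 847, 607 and 856 in WT 1 to 3. With all arrays included the genotypes differed by 0.48 ± 0.52 (SE) on the log2 scale, and without WT 2 by -0.01 ± 0.22 (SE). WT 2 alone was low. Probe set 1419996_s_at showed the same dependence, at 163, 329 and 349 in DKO 1 to 3, against 213, 12.6 and 357 in WT 1 to 3, with a difference of 1.38, or -0.07 without WT 2. WT 2 read lower than any other array by a wide margin.

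The third tested Arnt probe set, 1421721_a_at, had close values on all arrays by level, 1.06 ± 0.07 in DKO and 0.89 ± 0.10 in WT (SD, n = 3 each). Its deposited signals were 139, 131 and 102 in DKO 1 to 3, against 112, 245 and 92.7 in WT 1 to 3, and the difference was 0.17, or 0.22 without WT 2. Probe set 1425064_at spread widely within DKO, at 5.39, 74.6 and 61.1 in DKO 1 to 3, against 51.0, 57.6 and 16.7 in WT 1 to 3. Its difference was 0.28 ± 0.61 (SE), and leaving out any 1 array gave -0.08 to 0.98. Probe set 1449696_at lay under the filter and below the median of every array, at 21.2 to 39.4 in DKO and 24.9 to 81.8 in WT, with a difference of -0.06. With WT 2 left out, the differences of the 5 Arnt probe sets thus lay between -0.07 and 0.22, against -1.72 and -0.12 for Ahr.

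**Figure D2:**
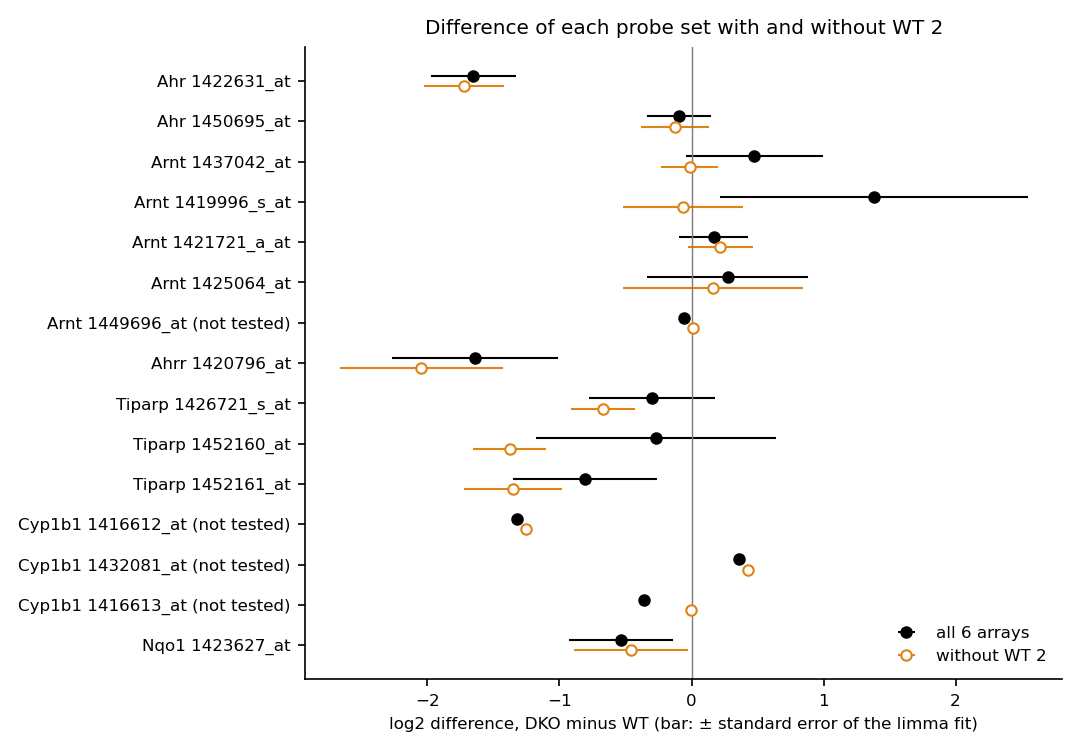
Log2 difference, DKO minus WT, of each probe set with all 6 arrays (filled) and without WT 2 (open), with bars of 1 standard error where the probe set entered the fit. Ahr 1422631_at and Ahrr lie below -1.6 in both, Tiparp 1452160_at moves to -1.38 and the brightest Arnt probe sets move to about 0 without WT 2.

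Of the 11 tested probe sets of the pathway, 7 had lower and 4 had higher mean level in DKO, where 9486 of all 27022 tested probe sets were lower. Without WT 2 it was 9 lower and 2 higher, where 14227 of the 27022 were lower. In 1 of the 11, Ahr 1422631_at, every DKO array lay below every WT array, as it did in 3.29% of the 27022 tested probe sets. Below both WT 1 and WT 3 lay 6 of the 11, namely both of Ahr, Ahrr and the 3 of Tiparp, where this held for 8.14% of all tested probe sets. Ahr 1450695_at did so only narrowly, with a highest DKO level of -0.37 and a lowest level of -0.35 in WT 1 and WT 3. These genes were chosen on this same comparison and several probe sets share a gene, so the counts carry no evidence of their own. The limma fit of all arrays called 2 probe sets at an adjusted p under 0.05, 0.0074% of those tested, and 7 without WT 2, 0.0259%, and none of them belongs to the pathway.

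Marker genes of granulocytes and macrophages moved with the genotype on some arrays. All 13 tested granulocyte markers had lower mean level in DKO, and the summed signal of the 14 measured was 700, 669 and 27939 in DKO 1 to 3, against 76240, 179534 and 19391 in WT 1 to 3. No granulocyte marker was listed at 0, and S100a8, a calgranulin of neutrophils, read 190, 186 and 10377 in DKO 1 to 3, against 24760, 94059 and 8306 in WT 1 to 3. By summed signal and by S100a8, DKO 3 thus lay within the WT range. Over all 12627 tested genes, 3765 had lower mean level in DKO with all arrays. Of 13 tested macrophage and monocyte markers, 11 had lower mean level in DKO, and no marker was at 0. Their summed signal was 26535, 18292 and 30640 in DKO 1 to 3, against 52580, 107479 and 21346 in WT 1 to 3. The sums of both lists are of deposited signals, not centred on the array median, so WT 2 cannot be read in them beside the other arrays. By median level the macrophage list stood at -0.58, -0.66 and 0.36 from its mean over all arrays in DKO 1 to 3. In WT 1 to 3 it stood at 1.13, 0.03 and -0.11. The granulocyte list stood at -2.51, -2.07 and 1.52 in DKO 1 to 3, against 2.26, 0.40 and 0.60 in WT 1 to 3. On both lists DKO 3 was thus above WT 2 and WT 3. Csf1r, the receptor for macrophage colony-stimulating factor, read 1012, 910 and 2703 in DKO 1 to 3, against 7067, 26294 and 1819 in WT 1 to 3.

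Among the knockout arrays Ahr 1422631_at was lowest on DKO 3, at 0.13. There the granulocyte markers were 1.52 and the macrophage markers 0.36 above their mean over the 6 arrays by median. Ahrr, the 3 Tiparp probe sets and Nqo1 were each highest on DKO 3 among the knockout arrays, as were both marker lists. The part of these markers in the pathway values was not tested.

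The other marker lists had no value at 0 either, and their sums are likewise of deposited signals, not centred on the array median. B lineage markers had 6 of 12 higher and 6 lower in DKO, with summed signals of 89000 to 113529 in DKO and 86429 to 150926 in WT. By median level they were lowest on WT 2, at -1.23 from their mean over the 6 arrays, although its sum was the highest. Single markers differed in both directions. Ms4a1 read 88.5, 136 and 5741 in DKO 1 to 3, against 934, 1163 and 5263 in WT 1 to 3. Cd22 differed by -1.62 (-1.63 without WT 2), while another tested probe set of Cd22 differed by 0.77, the opposite sign. By level the brighter one stood at 3.72 and 4.33 in DKO 1 and DKO 2. DKO 3, at 6.63, lay above the WT arrays (6.44 to 6.62). Blnk differed by 1.18 (0.66 without WT 2). T cell, NK cell and innate lymphoid markers had 5 of 7 higher with a median difference of 0.69, and 6 of 7 with a median of 1.16 without WT 2. Their summed signal was 851, 1384 and 264 in DKO 1 to 3, against 309, 974 and 269 in WT 1 to 3, so DKO 1 and DKO 2 were above WT 1 and WT 3 and DKO 3 was not. Dendritic cell markers had 5 of 6 higher, and 4 of 6 without WT 2, with sums of 1125 to 1701 in DKO and 612 to 1298 in WT. Stromal and endothelial markers had 3 of 5 higher, with sums of 558 to 1100 in DKO and 574 to 1063 in WT. These counts are to be read against all 12627 tested genes, of which 8862 were higher with all arrays and 6523 without WT 2.

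**Figure D3:**
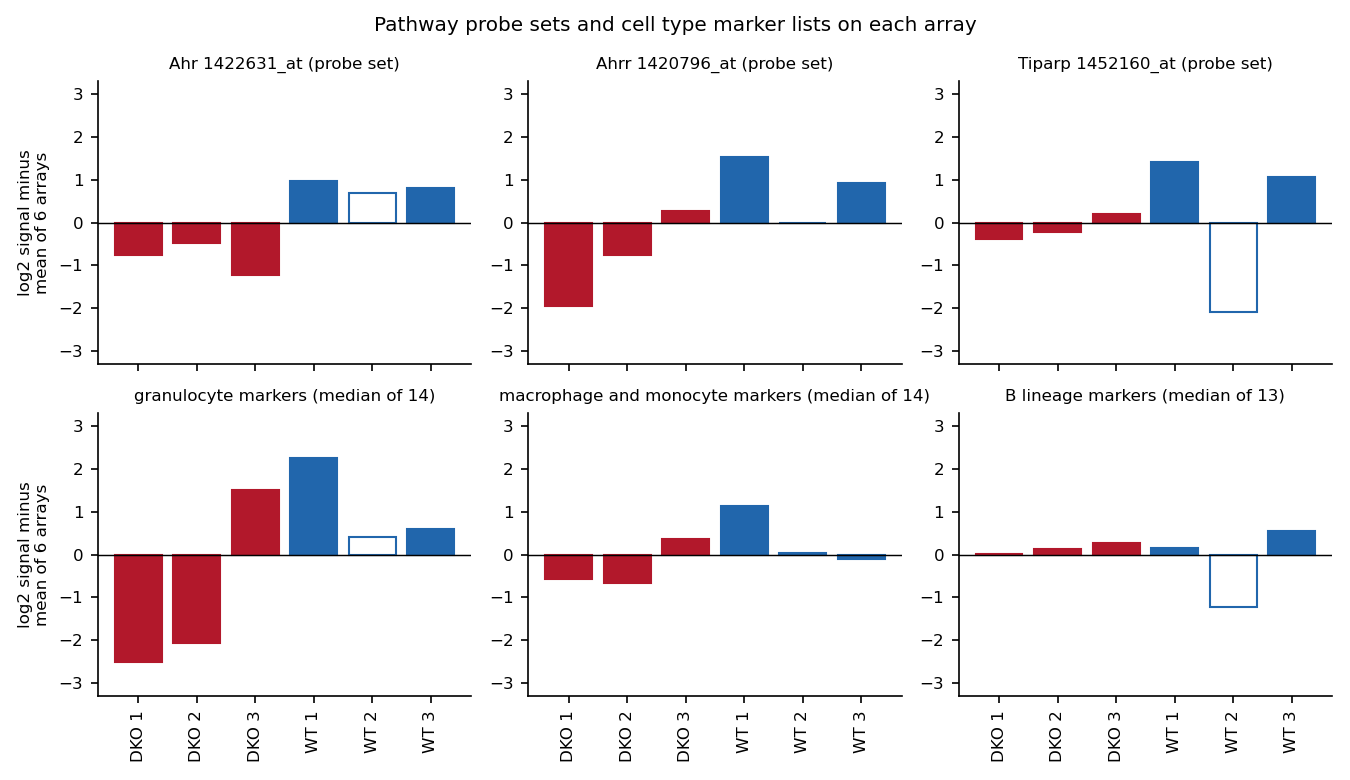
Level on each array minus the mean over the 6 arrays, on the log2 scale, for 3 pathway probe sets (top) and as the median of 3 marker lists (bottom), with DKO in red, WT in blue and WT 2 unfilled. On DKO 3 the granulocyte markers stand at 1.52 and Ahr at its lowest.

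Further genes of the pathway were read from lists that do not include the 6 described so far, each gene by its brightest probe set. Over 6 such lists 50 genes were tested, and limma called 0 of them at an adjusted p under 0.05, with adjusted p between 0.822 and 0.999, and 0 without WT 2. At an unadjusted p under 0.05 there was 1, Kynu, where 3.12% of all tested probe sets were that low. The median over all 12627 tested genes was 0.30 with all arrays and 0.01 without WT 2, with 8862 of them higher in DKO with all arrays and 6523 without WT 2, and the counts and medians of the lists are to be read against these.

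The classical target genes of the receptor were at low signal in both genotypes. Of the battery enzymes, Cyp1a1, Cyp1a2, Aldh3a1 and Gsta2 had a probe set named for them alone, and 0 of the 4 passed the filter. Cyp1a1, the cytochrome P450 that is induced most strongly by the receptor in liver, read 29.7, 38.9 and 32.5 in DKO 1 to 3, against 6.69, 119 and 27.4 in WT 1 to 3. Cyp1a2, its neighbour and liver counterpart, read 18.3, 2.17 and 1.16 in DKO 1 to 3, against 17.0, 22.3 and 19.9 in WT 1 to 3. Aldh3a1, an aldehyde dehydrogenase, read 26.7, 24.9 and 9.94 in DKO 1 to 3, against 2.96, 63.0 and 4.71 in WT 1 to 3. Apart from Cyp1a1 on WT 2, each of these signals lay below the median of its array.

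None of the tested cytoplasmic partners and coregulators of the receptor passed the threshold in the limma fit. Hsp90aa1, an HSP90 chaperone that holds the unliganded receptor, read 15864, 14714 and 17787 in DKO 1 to 3, against 18017, 18375 and 19162 in WT 1 to 3, a difference of 0.11 ± 0.35 (SE), and of -0.23 without WT 2, the opposite sign. Its other 3 tested probe sets read -0.70 to 1.11. Src, a kinase found in the complex, differed by 0.16, and by 0.53 without WT 2. All 9 coregulator and turnover genes had higher mean level in DKO, with a median of 0.55, where 8862 of all 12627 tested genes were higher. Without WT 2 it was 8 of 9, with a median of 0.11, where 6523 of the 12627 were higher. Stub1, a ubiquitin ligase, differed by 1.88 ± 1.39 (SE), and by 0.08 without WT 2, whose signal was 195 where the other arrays read 4467 to 4932. Crebbp, an acetyltransferase that serves as coactivator, differed by 0.85, and by 0.15 without WT 2.

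The bHLH-PAS relatives had 6 of 8 tested genes higher in DKO, with a median of 0.25, and 5 of 8 without WT 2, with a median of 0.11. Hif1a, the hypoxia factor that competes for ARNT, read 5255, 7700 and 4889 in DKO 1 to 3, against 4843, 4417 and 4649 in WT 1 to 3, so every DKO signal was above every WT signal. By level DKO 1 (6.21) was below WT 3 (6.23), and Hif1a differed by 0.64 ± 0.43 (SE), or 0.28 without WT 2. Arnt2, a close copy of Arnt best known from the nervous system, differed by 0.18 and lay near the array median. Sim1, a factor of brain development, differed by -0.80 ± 0.43 (SE), or -0.54 without WT 2. Targets of HIF1 had 11 of 12 higher in DKO, with a median of 0.37 (8862 of 12627 over all genes), and 10 of 12 without WT 2, with a median of 0.19 (6523 of 12627 over all genes). Among them P4ha1, a collagen prolyl hydroxylase subunit, differed by 1.93 (0.80 without WT 2) and Vegfa, the endothelial growth factor, by 0.76 (0.34 without WT 2), neither past the threshold.

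NRF2 and its targets, with which Nqo1 is shared, had 6 of 11 tested genes higher and 5 lower in DKO, with a median of 0.00. Without WT 2 they had 3 higher and 8 lower, with a median of -0.30. Nfe2l2, which encodes NRF2, differed by 0.60, and by -0.25 without WT 2, and Keap1, its inhibitor, differed by 0.34, and by 0.26 without WT 2. Txnrd1, thioredoxin reductase, differed by 1.37 (0.04 without WT 2), and Pgd, an enzyme of the pentose phosphate pathway, by -0.72 (-0.30 without WT 2). Other tested probe sets of these genes, with all arrays, differed by 2.45 for Nfe2l2, 0.87 for Keap1 and -0.58 for Txnrd1. Those of Pgd ranged from -0.83 to 0.88, so Txnrd1 and Pgd did not give 1 direction.

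Enzymes that turn tryptophan into ligands of the receptor had 6 of 8 tested genes higher in DKO, with a median of 0.12, and 4 of 8 without WT 2, with a median of -0.05. Kynu, the kynureninase, read 207, 166 and 30.4 in DKO 1 to 3, against 43.6, 47.8 and 5.93 in WT 1 to 3. DKO 3 lay within the WT range by signal, and the difference was 1.81 ± 0.60 (SE), which by limma had an adjusted p of 0.822. Another tested probe set of Kynu differed by 0.47. Kyat1, a kynurenine aminotransferase, differed by 1.11 (0.30 without WT 2). Clock repressor and output genes, for comparison, had 9 of 11 tested genes higher in DKO, with a median of 2.25, and 9 of 11 without WT 2, with a median of 2.05, a list already known from these arrays. Its median was 1.21 with each gene read by the probe set of the highest minimum in place of the brightest.

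**Figure D4:**
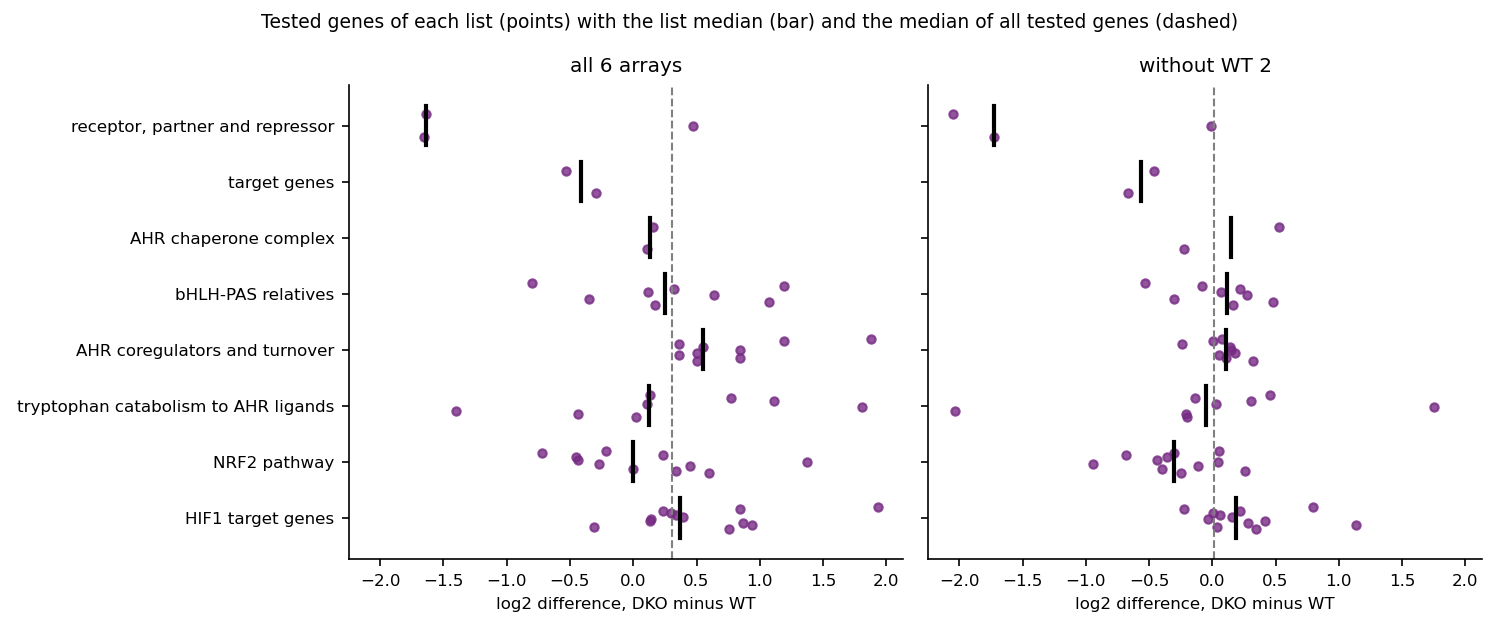
Log2 difference, DKO minus WT, of each tested gene (points, 1 probe set each) by list, with all 6 arrays (left) and without WT 2 (right). Black bars are list medians and the dashed line is the median of all tested genes, 0.30 on the left and 0.01 on the right, and the receptor and Ahrr are the 2 points below -1.5 in the top row.

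Profiles most like that of Ahr 1422631_at were sought among 22668 tested probe sets with 1 gene symbol, by the root mean square distance on the log2 scale over the arrays, each probe set taken against its own mean. Over 6 arrays the nearest were Gm26782 (0.22), 2510039O18Rik (0.28), Mycbp2 (0.30), Ifitm1 (0.32) and 2610035D17Rik (0.33), where Ahr itself varied by 0.86 about its mean. Ifitm1, an interferon-induced membrane protein, read 1928, 1917 and 1428 in DKO 1 to 3, against 4522, 11841 and 3727 in WT 1 to 3. Picked for its likeness to Ahr, it was like Ahr lowest on DKO 3. Without WT 2, over 5 arrays, the 5 nearest were Mycbp2, Ccser2, Gm26782, Ifitm1 and 2510039O18Rik, at 0.17 to 0.29.

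Within the pathway the nearest to Ahr over these 5 arrays were the Tiparp probe sets, at ranks 44 for 1452160_at (0.44), 178 for 1452161_at (0.55) and 609 for 1426721_s_at (0.66) of 22668. Ahrr was at rank 7111, and the Arnt probe sets lay between ranks 6295 and 21425. Over all 6 arrays the ranks of the Tiparp probe sets were 16097, 2293 and 3117 in the same order, so the closeness was seen without WT 2 only. These ranks share the arrays on which Ahr was chosen and are a description.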

How the data were processed

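Total RNA of 3 DKO and 3 WT samples had been biotin-labelled and hybridised to 1-colour oligonucleotide arrays. As deposited, each probe set has 1 linear intensity per array, which the submitters' processing notes attribute to MAS5 without a version, and the trimmed mean was 500 on each array. Groups were taken from the labels, and since these name no separate animals, p-values measure only the spread between samples, which may be technical.

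Values were transformed as log2(intensity + 16) and centred on each array's median. Probe sets above percentile 40 by mean, 27022 of 45037, entered a limma fit (version 3.58.1, R 4.3.3, with group as single term, trended variances, two-sided), with Benjamini-Hochberg adjustment at 0.05, and the fit was tested on simulated data. Of the 45037, 34945 were listed with 1 symbol, 932 with several and 9160 with none. Of those with 1 symbol, 34741 matched the RefSeq gene table of GRCm38.p6. Tables and figures used Python 3.11.15. The number of arrays limits the precision.

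The 6 pathway genes, the lists and the settings were chosen with earlier results of these data known. The lists cover chaperones, bHLH-PAS relatives, battery enzymes, coregulators, tryptophan enzymes, NRF2, HIF1, clock genes and 6 sets of cell type markers. From each pathway list the 2 genes with the smallest p were named, together with Cyp1a1, Cyp1a2, Aldh3a1, Arnt2, Hif1a, Nfe2l2 and Keap1, as were the 5 genes nearest to Ahr. Gsta2, S100a8, Csf1r, Vpreb1, Ms4a1, Cd22 and Blnk were added after their values were seen. Genes of the lists without a probe set named for them alone are not analysed here. Other settings were quantile normalization, centring over tested probe sets or none, pseudocounts of 1 and 64, other filters and variance models, array weights, the replicate number as a block, each array left out, quantile normalization without WT 2 and, for the lists, the probe set of the highest minimum.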

Additional observations from a re-analysis of the deposited data

How the results depend on the processing

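The number of probe sets called was 2 with all arrays. It was 0 with quantile normalization (853 at an unadjusted p under 0.05), centring over the tested probe sets (800), no centring (763) and a pseudocount of 1 (775), 1 with a filter at percentile 60 or with robust variances, 922 with array weights and 5 with quantile normalization and WT 2 left out. Leaving out 1 array gave 0 to 7, the 7 without WT 2. With the replicate number as a block it was 0 (761 at an unadjusted p under 0.05). Same-numbered arrays deviated from their group means with correlations of -0.151, -0.002 and 0.334 for numbers 1 to 3. Differently numbered arrays had -0.393 to 0.317, so number 3 gave the highest value of all pairs. Whether a number marks a shared animal or day cannot be told from these values. Array weights used the gene-by-gene method of limma, because its default method did not converge. The difference of Ahr 1422631_at was -1.65, and it was -1.97 with quantile normalization, -1.95 with centring over the tested probe sets, -1.96 without centring, -1.34 with a pseudocount of 64 and -1.82 to -1.45 with 1 array left out. Over the 15 probe sets of the pathway and 18 alternatives each, 16 of 270 values had the opposite sign, 14 of them of Arnt and 2 of Tiparp 1452160_at (without WT 1 and without WT 3), and 0 of Ahr, Ahrr, Cyp1b1 or Nqo1. Over the 6 gene lists and 19 alternatives each, 19 of 114 medians had the opposite sign, 8 of them of the NRF2 list and 0 of the coregulator and HIF1 target lists. The variance models and the replicate block cannot change a difference or a list median. Other filters cannot change the difference of a probe set. Values under these settings kept their sign by construction, and both counts include them. The differences of dim probe sets moved with the pseudocount, Ahrr to -2.46 with 1 and -0.94 with 64, Cyp1b1 1416612_at to -2.27 and -0.65, and the second Ahr probe set to -0.16 and -0.03. The battery enzymes were not run under other settings. The median of the clock genes was 1.77 with quantile normalization, 1.85 with a pseudocount of 64 and 1.21 with the probe set of the highest minimum.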
